A study of Homo sapiens with 8 samples.

Results

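The genes examined here encode 9 intermediate filament proteins, and they were taken from the 60234 genes of the deposited table by symbol. Each of the 9 symbols stood on 1 row, so the step that keeps the row with the highest mean decided nothing. The neurofilament-type members were NEFL, NEFM, NEFH, INA and PRPH, and the muscle-type members were VIM, DES, NES and SYNM. The family and both comparisons, knockdown against control and the libraries numbered 3 against the others, were chosen by their CPM in these 8 libraries, with earlier results known. Their values are therefore descriptions, and the p-values given for members only say where a gene stood in a fit of all genes.

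Expression was measured in Rh41, a single established line of alveolar rhabdomyosarcoma, a childhood tumour with skeletal muscle features. All 8 libraries carry the PAX3-FOXO1 fusion. The control group held 4 libraries labelled CTR with the knockdown entry "control", and the siG9a group held 4 libraries with knockdown of G9a, the histone H3 lysine 9 methyltransferase encoded by EHMT2. The series title writes shG9a where the samples write siG9a, and the reagent and the time after treatment are not given in the sources used here. The submitters call the libraries biological replicates, numbered 1 to 4 in each group, without saying what libraries of the same number share.

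Intermediate filaments are rope-like polymers of the cytoskeleton, built from coiled-coil dimers. Desmin (DES) is the muscle filament protein that links myofibrils to each other and to the membrane, and it serves as a diagnostic marker of rhabdomyosarcoma. Vimentin (VIM) is the filament protein of mesenchymal cells, nestin (NES) that of progenitor cells including myoblasts, and synemin (SYNM) a large partner that co-assembles with desmin or vimentin. The neurofilament light, medium and heavy chains (NEFL, NEFM, NEFH), alpha-internexin (INA) and peripherin (PRPH) form the filaments of axons, where NEFM and NEFH need NEFL or INA to polymerise.

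Values are CPM, the reads of a gene scaled to a fixed total of reads assigned to genes. The libraries were 3-prime tag libraries (QuantSeq), which give reads near the end of a transcript, so that a value does not scale with the length of its gene. The whole reads behind the CPM were recovered, between 1458825 and 1938665 per library, and 3 reads, the floor used here, lay between 1.55 and 2.06 CPM. EHMT2 was lower in siG9a in 4 of 4 numbers, at 34.0%, 51.6%, 37.9% and 66.3% of the control library of the same number (1 to 4). The groups overlapped, with 57.6 CPM in control 1 and 58.5 CPM in siG9a 4. An exact permutation test, two-sided, gave p = 0.0571 for EHMT2. Its log2 change was -1.10 ± 0.31 (SE, n = 4 per group) with a limma adjusted p of 0.191, and ± 0.19 with an adjusted p of 0.000472 when the replicate number was a block. Both libraries numbered 3 stood apart from the rest: 20.1% of the 15092 genes tested were above the other 3 libraries in both groups there and 19.8% below them. The genes examined here include some of the most shifted ones, so the knockdown changes are given with and without those libraries. Whether strand was used in counting is not given in the sources used here. NEFM, NEFH, PRPH, VIM, DES and SYNM overlap antisense genes in GENCODE release 29, and those listed in the table had means of at most 0.295 CPM.

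NEFM was the most abundant member and differed more between libraries of 1 group than between the groups. In control it measured 156, 1562, 8046 and 1737 CPM in numbers 1 to 4, from 227, 2571, 13085 and 3346 reads. In siG9a it measured 182, 2498, 7625 and 1597 CPM. In both groups the library numbered 1 was lowest, numbers 2 and 4 lay between, and number 3 was highest. The highest control library was 51.7-fold above the lowest one, and the highest siG9a library 42.0-fold above the lowest. By rank among all genes, NEFM was 5th in control 3 and 7th in siG9a 3, against 1112th in control 1 and 870th in siG9a 1.

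NEFL followed NEFM closely. It measured 27.4, 255, 1557 and 303 CPM in control numbers 1 to 4, and 36.1, 449, 1302 and 309.7 CPM in siG9a. The highest library, number 3 in each group, was 56.8-fold above the lowest in control and 36.1-fold above it in siG9a. The number of NEFM reads per NEFL read stayed between 5.03 and 6.14 in the 8 libraries, with a mean of 5.54 ± 0.389 (SD, n = 8). While NEFL spanned at least 36.1-fold and NEFM at least 42.0-fold within a group, their ratio spanned 1.22-fold over both groups. Its 95% Wilson intervals, which cover counting error only, ran from 4.95 to 5.39 in control 3 and from 5.601 to 6.12 in siG9a 3, the deepest counts. Those intervals did not overlap, so a small difference in the ratio between these libraries was larger than counting error.

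**Figure D1:**
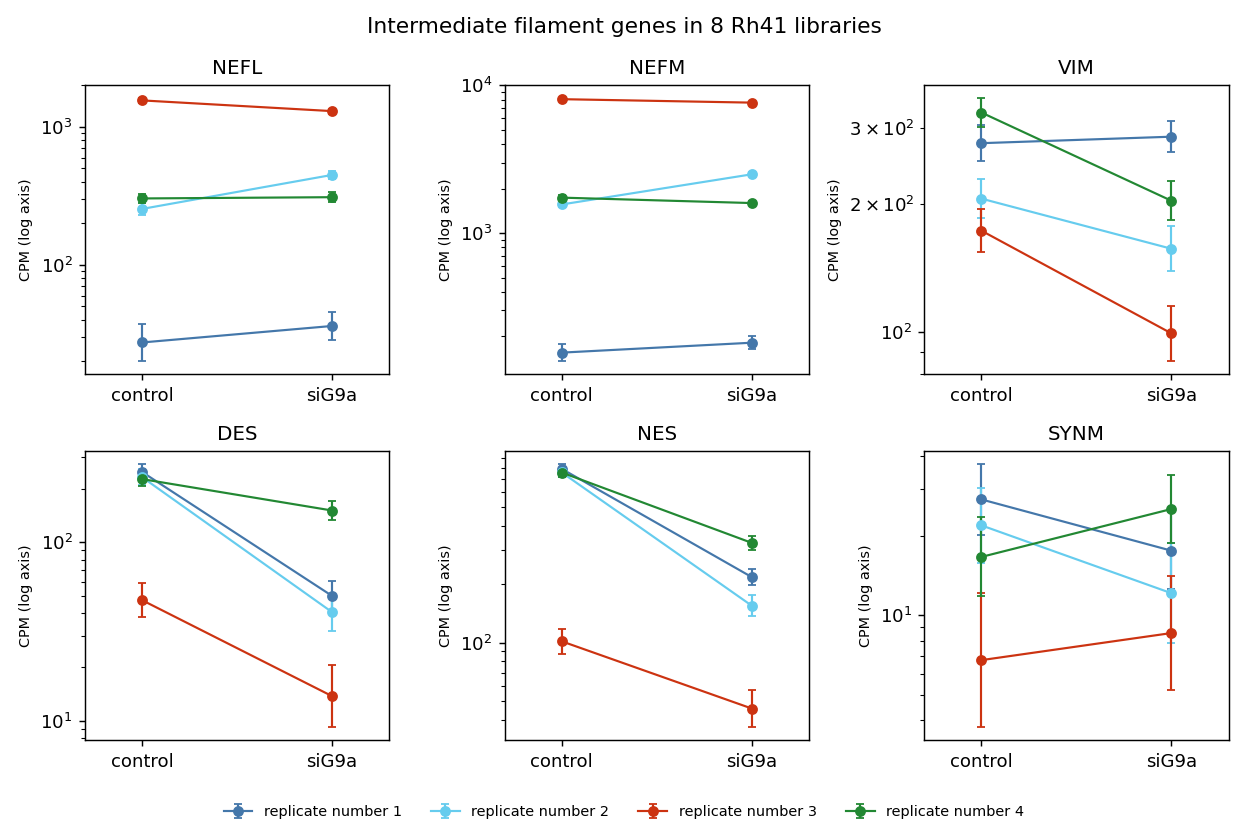
CPM (log axis) of the 6 members with a mean of at least 10 CPM in each library, control on the left and siG9a on the right of each panel; lines join libraries of the same replicate number and bars are 95% Wilson intervals. NEFL and NEFM separate by number (number 1 lowest, number 3 highest) with little slope, whereas DES and NES slope down in all 4 numbers.

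The remaining neurofilament-type members were at or near the floor. NEFH, the heavy chain, had 1 read in all 8 libraries together (siG9a 1), and was not tested. INA had 1, 1, 1 and 4 reads in control numbers 1 to 4 and 7, 3, 10 and 2 reads in siG9a, or 0.61 to 2.08 CPM against 1.15 to 5.71 CPM. PRPH had between 3 and 11 reads, 2.06 to 5.47 CPM in control and 1.71 to 6.31 CPM in siG9a. Neither INA nor PRPH shared the order of NEFL and NEFM: PRPH was at 2.46 CPM in control 3 and at 1.71 CPM in siG9a 3, the latter the lowest of the 8. INA was highest in siG9a 3, on 10 reads, but had 1 read in control 3, and NEFH had too few reads to show a shift. A rise in number 3 in both groups was thus seen for 2 of the 5 neurofilament-type members.

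DES was even among 3 of the control libraries and lower in all the others. It measured 248, 232, 47.4 and 226 CPM in control numbers 1 to 4, and 50.03, 40.55, 13.7 and 151 CPM in siG9a. Control 3 lay below the other control libraries, and siG9a 4 lay above the other siG9a libraries. Both siG9a 4 and siG9a 1 lay above control 3, so the groups overlapped. Within each number, siG9a stood at 20.2%, 17.5%, 28.9% and 66.6% of control. DES averaged 188.5 ± 94.5 CPM over the control libraries, against 63.8 ± 60.04 CPM under siG9a (SD, n = 4). The lowest value, siG9a 3, rested on 24 reads.

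NES had the same form. It measured 788, 755, 101.5 and 754 CPM in control numbers 1 to 4, and 218, 155, 45.7 and 327 CPM in siG9a. Again control 3 was far below the other control libraries, which lay close together, and it was also below 3 of the 4 siG9a libraries. Within each number, siG9a stood at 27.6%, 20.5%, 45.0% and 43.3% of control. NES averaged 599.6 ± 332 CPM over the control libraries, against 186 ± 118 CPM under siG9a (SD, n = 4). The number of NES reads per DES read ranged from 2.14 (control 3) to 4.35 (siG9a 1), a span of 2.03-fold, wider than that of the neurofilament pair.

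**Figure D2:**
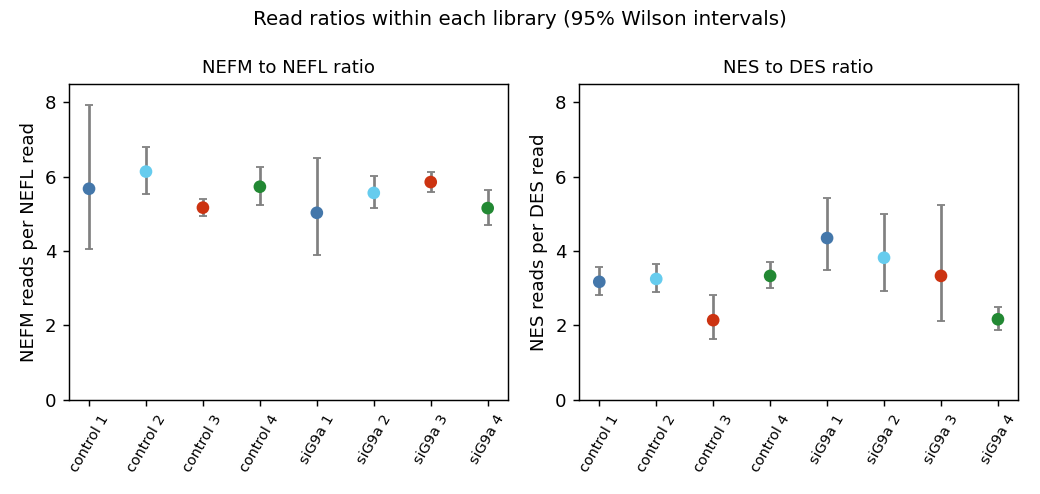
Reads of NEFM per read of NEFL (left) and of NES per read of DES (right) in each of the 8 libraries, with 95% Wilson intervals that cover counting error; colours mark the replicate number. The left ratio lies between 5.03 and 6.14 throughout, and the right one between 2.14 and 4.35.

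VIM and SYNM varied less. VIM measured 277, 205, 173 and 327 CPM in control numbers 1 to 4, and 287, 157, 99.3 and 203 CPM in siG9a. Number 3 was lowest in each group, but by a smaller margin than for DES and NES, and siG9a was below control in 3 of 4 numbers. SYNM, the least abundant muscle-type member, measured 27.4, 21.9, 6.76 and 16.6 CPM in control and 17.5, 12.1, 8.56 and 25.2 CPM in siG9a. It too was lowest in number 3 in each group, on 11 and 15 reads, and siG9a was below control in 2 of 4 numbers and above it in the other 2.

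In the knockdown comparison 2 of the 4 muscle-type members, DES and NES, fell in siG9a in the fit with the replicate block, and no neurofilament-type member was called in either direction. For DES the log2 change, on the log2(CPM + 1) scale, was -1.77 ± 0.65 (SE) with a limma adjusted p of 0.300 without the block, and ± 0.22 with an adjusted p of 6.69e-06 with it, lower in 4 of 4 numbers. For NES it was -1.62 ± 0.68 (SE) with a limma adjusted p of 0.360 without the block, and ± 0.17 with an adjusted p of 5.54e-07 with it, also lower in 4 of 4 numbers, as were 15.3% of all genes tested. Without the block limma called 0 of 8 members, where 0% of all genes tested were called. At an unadjusted p under 0.05 there were 2 of 8 members and 1880 of 15092 genes, and edgeR without the block also called 0 genes, but DESeq2 called 291, or 1.93% (1.28% lower), none of them a member. With the block 2 of 8 members were lower and 0 higher, where 6.52% of all genes tested were lower and 4.86% higher. No member had groups that did not overlap, where 3.88% of all genes did not overlap with siG9a higher and 3.45% with siG9a lower. The share of reads from mitochondrial genes moved with the knockdown as well, from 9.18%, 5.58%, 4.68% and 4.59% in control numbers 1 to 4 to 13.7%, 11.4%, 6.53% and 5.21% in siG9a. It was higher in siG9a in 4 of 4 numbers, and its part in the result was not tested.

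Leaving out both libraries numbered 3 kept DES and NES at about the same change. Their log2 changes were then -1.79 and -1.78, and limma gave adjusted p-values of 0.0109 for DES and 0.000839 for NES without the block, and of 0.000318 and 1.08e-05 with it (3 libraries per group). In that comparison 2 of 8 members were lower and 0 higher. Without the block 2.74% of all genes were called there (1.95% lower, 0.782% higher), and with it 7.14% (4.59% lower, 2.56% higher). Both were called in all 9 alternative fits that carried the block, among them those leaving out each number in turn, with adjusted p-values up to 0.00137 for DES and 0.000113 for NES. The VIM difference was -0.45 ± 0.15 (SE) on the log2 scale, for which limma gave adjusted p-values of 0.0566 (blocked) and 0.597 (unblocked). It passed the threshold (adjusted p = 0.0255 in limma) only when both libraries numbered 1, where VIM was level between the groups, were left out, and without the libraries numbered 3 the difference was -0.34 (adjusted p = 0.297 in limma, blocked). SYNM had a log2 change of -0.14 ± 0.29 (SE), with a 95% interval from -0.72 to 0.45, and an adjusted p of 0.821 in the blocked limma fit. Without the libraries numbered 3 its change was -0.28 (adjusted p = 0.661). The median log2 change over the 4 muscle-type members was -1.03, beside 0.015 over all genes tested.

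NEFL and NEFM were not called with or without the block, and their largest difference within a number was that of number 2. NEFM in siG9a stood at 117%, 159.9%, 94.8% and 91.9% of control in numbers 1 to 4, and NEFL at 132%, 176%, 83.6% and 102.1%. In number 2 the 95% Wilson intervals of control and siG9a did not overlap for either gene, with siG9a higher. They did not overlap in number 3 for either gene, or in number 4 for NEFM, with siG9a lower. With the block the log2 change was 0.17 for NEFM, with a 95% interval from -0.13 to 0.48, and 0.24 for NEFL, with an interval from -0.08 to 0.57, and the limma adjusted p-values were 0.509 and 0.359. Without the block the intervals widened to -2.32 to 2.67 for NEFM and -2.21 to 2.70 for NEFL, which reflects the spread between numbers. The sign of either change turned in unblocked fits that left out a single library, which breaks a pair. It stayed positive in the 9 alternative fits with the block, where leaving out number 2 gave the smallest change, 0.05 for NEFL and 0.007 for NEFM. Without the libraries numbered 3 the blocked change was 0.41 for NEFL, with a 95% interval from 0.006 to 0.82 and an adjusted p of 0.218 in limma, and 0.26 for NEFM, with an adjusted p of 0.455. INA had a log2 change of 0.95 ± 0.47 (SE) on few reads, where the blocked limma fit gave an adjusted p of 0.210, and PRPH one of 0.12 ± 0.40 (SE) with an adjusted p of 0.895. Without the libraries numbered 3 these were 0.58 and 0.27, also not called. Over the 4 neurofilament-type members tested the median was 0.21.

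**Figure D3:**
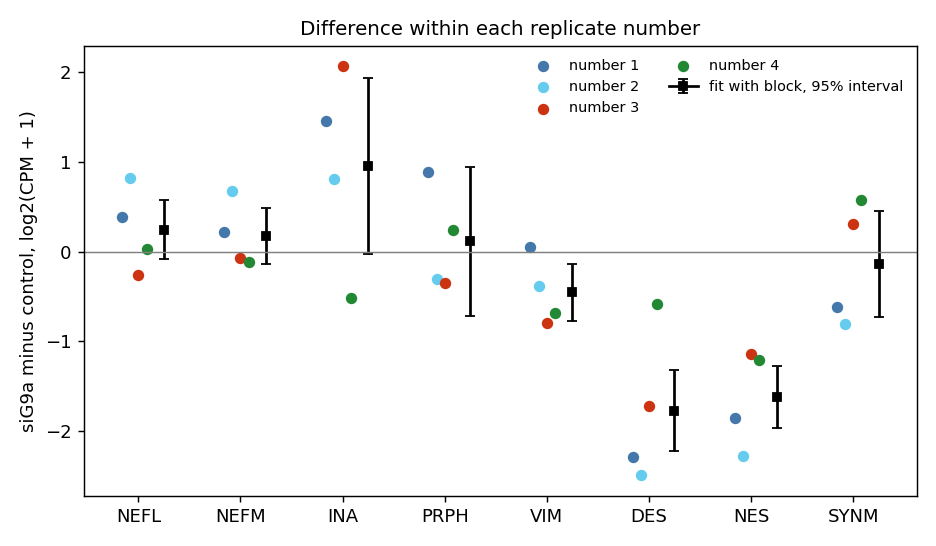
Difference between siG9a and control on the log2(CPM + 1) scale for the 8 members tested; coloured points are the 4 replicate numbers and black squares are the limma estimate with the replicate block and its 95% interval. All 4 points lie below 0 for DES and NES, whereas NEFL, NEFM, PRPH and SYNM have points on both sides.

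The libraries numbered 3 differed from the others of their group in both kinds of gene and in opposite directions. NEFL was 7.98-fold and NEFM 6.99-fold above the mean CPM of the other 3 control libraries, and 4.91-fold and 5.35-fold above the other 3 siG9a libraries. DES was 4.97-fold below the mean of the others in control and 5.87-fold below it in siG9a, and NES 7.55-fold and 5.11-fold below. SYNM was 3.25-fold and 2.14-fold below, and VIM 1.56-fold and 2.17-fold below. On the log2(CPM + 1) scale, NEFM shifted by 3.42 in control and 3.08 in siG9a and NES by -2.90 and -2.26. Among the 8898 genes that averaged 10 CPM or more, NEFL ranked 5th and NEFM 9th from the top of this shift in control, and 6th and 3rd in siG9a. NES ranked 36th and DES 160th from the bottom in control, and 121st and 131st in siG9a. Of the 8 members tested, 2 lay above and 4 below the other libraries in both groups, the background being the 20.1% and 19.8% given above. A shift of at least 4-fold in both groups was reached upward by NEFL and NEFM and downward by DES and NES, where 0.808% of all genes reached it upward and 0.855% downward. In siG9a these shifts rested in part on single reference libraries: leaving out number 1 gave 1.80 for NEFL and 1.93 for NEFM, and leaving out number 4 gave -1.65 for DES and -1.98 for NES, each short of 4-fold (2 on the log2 scale). This comparison chose the members and is given with no test.

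**Figure D4:**
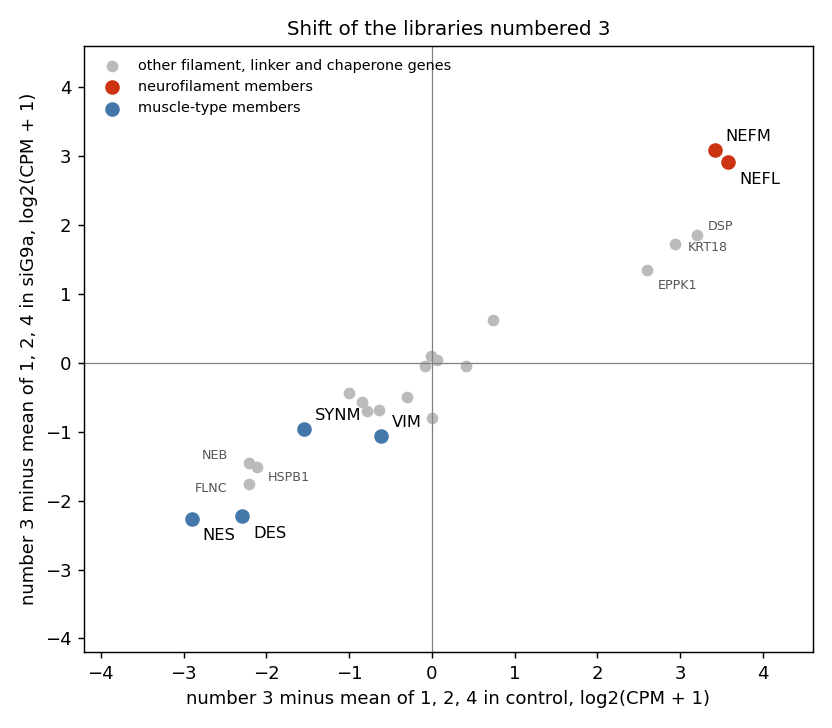
Shift of the library numbered 3 against the mean of numbers 1, 2 and 4, on the log2(CPM + 1) scale, in control (horizontal) and siG9a (vertical), for the 6 members and for the other filament, linker and chaperone genes averaging 10 CPM or more; 6 of the latter are labelled. NEFL and NEFM lie at the upper right (NEFM at 3.42 and 3.08), and DES and NES at the lower left (NES at -2.90 and -2.26).

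Outside the libraries numbered 3, DES and NES did not mirror the neurofilaments, while VIM and SYNM kept a negative coefficient with them. Among control numbers 1, 2 and 4, NEFM ranged from 156 to 1737 CPM while DES stayed between 226 and 248 CPM and NES between 754 and 788 CPM. Over all 8 libraries, Pearson's r of log2(CPM + 1) was -0.60 between NES and NEFM and -0.49 between DES and NEFM. Over the 6 libraries not numbered 3 it was -0.12 and -0.01. For VIM with NEFM r was -0.73 over 8 libraries and -0.56 over those 6, and for SYNM with NEFM it was -0.76 and -0.43. For the pairs of like kind r was 0.999 for NEFL with NEFM and 0.972 for DES with NES, and 0.998 and 0.962 without the libraries numbered 3. These coefficients describe 8 libraries that fall into clusters by number, so no p is given.

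Summed over their members, the muscle-type genes held 1340, 1214, 328 and 1324 CPM in control numbers 1 to 4 and 572, 364, 167 and 706 CPM in siG9a. The neurofilament-type genes held 186, 1823, 9606 and 2048 CPM in control and 226, 2954, 8935 and 1914 CPM in siG9a. Of the reads of the whole family, the neurofilament-type share was 12.2%, 60.02%, 96.7% and 60.7% in control and 28.4%, 89.02%, 98.2% and 73.1% in siG9a. It was thus larger in siG9a in 4 of 4 numbers. In each of the 4 numbers the muscle-type sum was lower in siG9a, while the neurofilament sum was higher in numbers 1 and 2 and lower in numbers 3 and 4. In bulk RNA, fewer cells with a transcript and less of it per cell cannot be told apart.

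**Figure D5:**
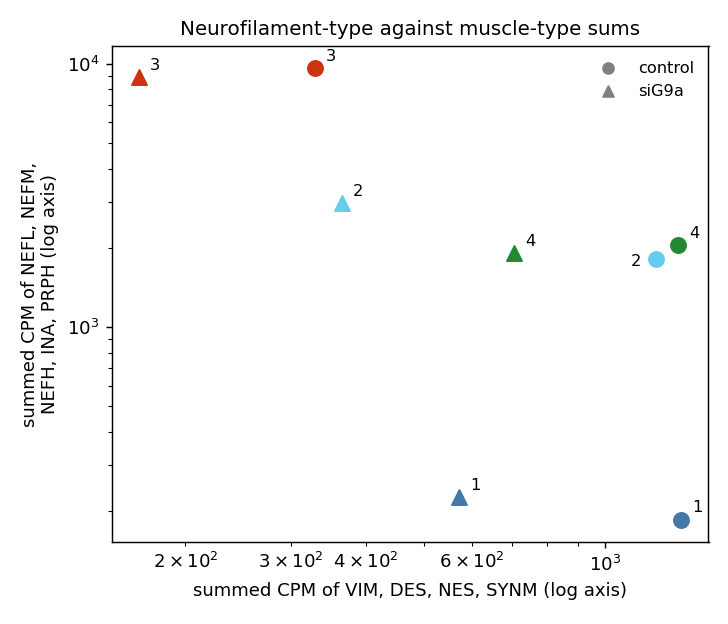
Summed CPM of the 5 neurofilament-type genes (vertical, log axis) against that of the 4 muscle-type genes (horizontal, log axis); each point is 1 library, labelled with its replicate number, circles for control and triangles for siG9a. Each triangle lies to the left of the circle of the same number, and both points numbered 3 lie at the upper left.

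Markers of cell types were looked at in the libraries numbered 3 first, then in the knockdown. Of 15 neuronal markers 9 were tested, and 2 of these were above and 2 below the other libraries in both groups in number 3. Over all genes tested 20.1% lay above and 19.8% below. The counts are near that background and are no result about the list. UCHL1, a ubiquitin hydrolase of neurons and neuroendocrine cells, measured 525 CPM in control 3 (others 89.8 to 278) and 252 CPM in siG9a 3 (others 77.4 to 201). The other marker above was STMN4, at 7.99 CPM (others at most 1.04) and 2.28 CPM (others at most 1.72), the latter near the floor. The neuronal markers ELAVL3, ELAVL4, SNAP25, CHGA and CHGB had at most 3 reads in every library, CHGB being at 0 in all 8. TUBB3 was at 0 CPM in control 3 and 1.14 CPM in siG9a 3. STMN2 was too low to be tested. It was at 2.46 CPM in control 3 (others at most 0.69) and 1.71 CPM in siG9a 3 (others at most 0.52). GAP43 was at 8.61 CPM in control 3 (others at most 3.63) and at 0 CPM in siG9a 3 (others at most 2.42). The summed level of the 15 genes was 564 CPM in control 3 against 133 to 321 in the other controls, and 275 CPM in siG9a 3 against 107 to 233, most of it UCHL1. SYT1 and MAP2, the next most abundant, were the 2 below. In the knockdown comparison with the block 1 of the 9 fell, UCHL1, and 0 rose. Over all genes tested 6.52% were lower and 4.86% higher. UCHL1 had a log2 change of -0.58 and an adjusted p of 0.0141 in the blocked limma fit. Without the libraries numbered 3 its change was -0.43, with an adjusted p of 0.173 in limma, blocked. The median log2 change of the 9 was -0.58.

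Of 22 skeletal muscle markers 15 were tested, and 11 lay below the other libraries in both groups in number 3, with none above. Over all genes tested 19.8% lay below and 20.1% above. The sum of the 22 markers was 495 CPM in control 3 against 2774 to 3457 in the other controls. In siG9a 3 it was 428 CPM against 1416 to 1965. In control 3 and siG9a 3, MYOD1 was at 95.3 and 128 CPM, and DES, a member, at 47.4 and 13.7 CPM, all above the floor. MYOG was at 3.69 and 1.14 CPM there, the latter under the floor. In the knockdown comparison with the block 7 of the 15 fell (CDH15, CHRNA1, ACTC1, MYL4, TNNI1, TNNT2 and MYLPF) and 0 rose. Over all genes tested 6.52% were lower and 4.86% higher. Without the libraries numbered 3 the count was also 7, where 4.59% of all genes were lower with the block. The median log2 change of the 15 was -0.94. MYOD1 (log2 change -0.03) and TTN (0.34), the giant sarcomere protein, were not called. Of 10 stromal markers 6 were tested and 3 lay below in number 3, beside the 19.8% of all genes. Sums over the list were 144 CPM in control 3 (others 326 to 445) and 68.5 CPM in siG9a 3 (others 185 to 369). COL3A1 and FBN1 were among those 3, and COL1A1 was the 1 stromal gene called with the block (log2 change -0.85, adjusted p = 0.0410 in limma). Without the libraries numbered 3 its change was -0.43, with an adjusted p of 0.382, and edgeR and DESeq2 with the block gave 0.0554 and 0.113. Of 8 epithelial markers 2 were tested, CDH1, lower with the block, and ELF3, and the sum was between 2.44 and 16.6 CPM in all libraries. CLDN7, too low to be tested, was at 4.30 CPM in control 3, at 1.14 CPM (under the floor) in siG9a 3 and at 0 in the other 6 libraries. Neither CDH1 nor ELF3 lay outside the other libraries in both groups in number 3. The part of these markers in the members' values was not tested.

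The other filament genes and their partners, 32 genes in all, had 25 members tested. In the knockdown comparison with the block 2 rose and 3 fell, where 4.86% of all genes tested were higher and 6.52% lower. The counts are not far from those shares and are no result about the list. Without the block 0 were called, as over all genes. The nuclear lamins LMNB1 (133 ± 24.8 to 194 ± 21.2 CPM) and LMNB2 (65.99 ± 19.4 to 99.5 ± 25.7 CPM, SD, n = 4) rose, at adjusted p-values of 0.0169 and 0.0178 in limma, while LMNA had a log2 change of -0.31 and an adjusted p of 0.185. LMNB2 ends inside TIMM13, a more abundant gene on the same strand, and its value is uncertain. The cytolinkers MACF1 (log2 change -0.58, adjusted p = 0.00571 in limma) and DST (-0.49, 0.0226) and the filamin FLNC (-0.67, 0.0144), which binds at the Z-disc where desmin attaches, fell. Without the libraries numbered 3, LMNB1 and FLNC stayed under an adjusted p of 0.05 in limma with the block (0.0277 and 0.0230), and LMNB2, MACF1 and DST did not (0.0676, 0.0504 and 0.0774), at log2 changes of 0.62, -0.57 and -0.52. The keratins KRT19 (higher, 0.0182) and KRT80 (lower, 0.0151) were called in that fit, so that 2 genes rose and 2 fell. Over all genes tested 2.56% rose and 4.59% fell in it. In number 3 both keratins went the other way, with siG9a at 12.1% of control for KRT19 and 185% for KRT80. KRT19 was at 0.69 to 2.43 CPM in the other control libraries, at or near the floor. Neither keratin was called in the blocked limma fit of all 8 libraries (adjusted p = 0.341 and 0.0739). PLEC, the plectin linker, had a log2 change of -0.30 and an adjusted p of 0.227 in the blocked limma fit of all 8 libraries.

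In the libraries numbered 3, 5 of these 25 genes lay above and 9 below the others in both groups, where 20.1% of all genes tested lay above and 19.8% below. The count above is near that background and is no result about the list. Above were the keratins KRT8 and KRT18, which pair with each other in simple epithelia, the desmosomal linker DSP, the linker EPPK1, and LMNB2. DSP measured 377 CPM in control 3 (others 7.54 to 89.3) and 203 CPM in siG9a 3 (others 20.1 to 105.5). KRT18 measured 46.1 CPM (others 0.69 to 12.2) and 29.1 CPM (others 3.61 to 12.04). Both keratins have processed copies elsewhere in the genome, so their counts are uncertain. Below were LMNA, PLEC, MACF1, FLNC, SYNC, KLHL24, NEB, HSPB1 and CRYAB, the last 2 encoding small heat shock proteins that bind desmin. HSPB1 measured 98.4 CPM in control 3 (others 344 to 508) and 159 CPM in siG9a 3 (others 442 to 471). NEB overlaps RIF1 at its end. GFAP, BFSP2 and KRT20 were at 0 in all libraries. BAG3, DNAJB6, TRIM32, KRT10, DST and LMNB1 were not outside the others in both groups.

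The genes with the profile most like a member over the 8 libraries were sought among the other genes that averaged 10 CPM or more (8897 compared), by Pearson's r of log2(CPM + 1). For NEFM they were CYB561 (r = 0.996), CACNG8 (0.995) and MAP7 (0.994), and the same 3 came first for NEFL. For NES they were GPC1 (0.995), VASH2 (0.994) and SHISA4 (0.993), and for DES PLXDC2 (0.993), COL5A1 (0.990) and EYA2 (0.989). For VIM they were AUTS2, IRX1 and SGOL2, with r from 0.977 to 0.989, and for SYNM SPIN1, ACP2 and IFNAR2, with r from 0.970 to 0.986. Without the libraries numbered 3, r stayed at or above 0.98 for the genes listed for NEFM, NEFL, DES and NES. For those listed for VIM and SYNM it was lower, from 0.936 to 0.971.

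Promoter windows from RefSeq (GRCh38.p14, 250 bases before to 50 after the gene's start) were matched for 5 of the 9 members, and none is given for NEFL, NEFM, NEFH and DES. Those of NES, which fell with the knockdown, and SYNM, which was not called, are shown to compare the muscle-type pair, 5-prime to 3-prime on the gene's strand, with the E-box CANNTG searched on both strands and set in capitals. E-boxes are the sites that MYOD1 and related factors bind. Printed are the 250 bases before the start, chr1:156677408-156677657 on the minus strand for NES and chr15:99104830-99105079 on the plus strand for SYNM.
NES: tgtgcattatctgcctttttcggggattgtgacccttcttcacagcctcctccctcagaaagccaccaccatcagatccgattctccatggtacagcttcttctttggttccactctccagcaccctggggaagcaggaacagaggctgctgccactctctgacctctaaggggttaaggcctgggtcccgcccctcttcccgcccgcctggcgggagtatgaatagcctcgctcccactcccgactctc
SYNM: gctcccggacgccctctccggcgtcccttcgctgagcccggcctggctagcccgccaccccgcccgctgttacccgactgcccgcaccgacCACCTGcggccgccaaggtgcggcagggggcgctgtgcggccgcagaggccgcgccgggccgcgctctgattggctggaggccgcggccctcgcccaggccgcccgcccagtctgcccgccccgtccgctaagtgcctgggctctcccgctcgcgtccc

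The NES window held 0 E-boxes and the SYNM window 1, while VIM held 0, PRPH 1 and INA 2, 1 of them of the form CAGCTG. Of the 35116 promoter windows of the same length, 68.7% held at least 1 CANNTG and 17.9% at least 1 CAGCTG, which is a special case of it. NES held 14 CpG dinucleotides, equal to the median of all windows, and SYNM 43, above the upper quartile of 28. VIM held 10, PRPH 13 and INA 35. A TATAAA motif was present in PRPH and in 11.5% of all windows, and absent from those of the other 4 members.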

How the data were processed

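Per the file header, the deposited table gives CPM for 60234 Ensembl genes in 8 libraries, scaled by the authors to the reads assigned to genes. The submitters' processing notes name FastQC 0.11.8, Trim Galore, STAR 2.5.0a, HTSeq 0.8.0 and edgeR 3.28, and the builds GRCh38 and hg19, with no role or order. The table's 8 further columns are blank.

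From these values, whole reads were recovered (100% of non-zero values within 0.0051 CPM). No 2 libraries of a group agreed within sampling error (chi-square divided by its degrees of freedom, 6.67 to 33.03), so all 8 were kept. The main test, two-sided, fitted log2(CPM + 1) with limma 3.58.1 (eBayes with trend; R 4.3.3) for the 15092 genes averaging 1 CPM or more, with Benjamini-Hochberg adjustment and a threshold of 0.05. A pseudocount of 1 understates the change of low genes. At 10 CPM a gene rests on fewer than 20 reads. edgeR 4.0.16 and DESeq2 1.42.0 were run on the recovered reads. The fits were tested on simulated data in which libraries of the same number shared their means. That run takes the pairing as given and cannot show whether it holds here.

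The replicate number was used as a block in a second fit. Deviations of same-numbered libraries from their group means correlated across genes by 0.50, 0.104, 0.67 and 0.13 (numbers 1 to 4). Control 2 correlated better with siG9a 4 (0.144), and 3 of 4 libraries of each group correlated best with their own number. The pairing comes from the sample titles. The check bears it out for numbers 1 and 3, and does not tell numbers 2 and 4 apart.

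The members and lists were chosen with earlier results of these data known. Named were all 9 members, in each list the 3 most abundant genes and those called, and filament or linker genes averaging 10 CPM or more. Other marker, keratin and linker genes named (those at 0 or near the floor, and those that stand out in number 3) were chosen after their values were seen. Alternatives were other pseudocounts, filters, scalings, tools and left-out libraries. A listed gene is not reported here.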

Additional observations from a re-analysis of the deposited data

Results flagged for a closer look

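For the members, their sums and their ratios, Dixon's gap criterion marked 1 of the 4 libraries of a group as apart in 5 of the 26 groups examined. Chance alone gives about 1 in 20, and these measures share their libraries. Since the members were chosen with the libraries numbered 3 in view, the 4 marks on control 3 describe that choice and support nothing. In control 3, DES was at 47.4 CPM (others 226 to 248) and NES at 101.5 CPM (others 754 to 788). The sum of the muscle-type genes was 328 CPM in the same library (others 1214 to 1340), and its NES to DES ratio was 2.14 (others 3.17 to 3.33). INA was at 2.08 CPM, 4 reads, in control 4, where the others were at 0.61 to 0.69 CPM, 1 read each.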

How the results depend on the processing

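The limma fit without the replicate block called 0 genes. Other settings called 18 genes (no filter), 436 (array weights), 291 (DESeq2) and 413 (both libraries numbered 3 left out). With the replicate block, limma called 1717, edgeR 1711 and DESeq2 969. The block fit called 1078, 951, 668 and 1393 with the libraries numbered 3, 1, 2 or 4 left out, 1692 with median-ratio scaling and 1688 with quantile normalization. Leaving out 1 library called 0 to 300 genes, the 300 without control 3. The cause was not tested. The block fits with number 1, 2 or 4 left out or another scaling were chosen after seeing the data.

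The log2 change of EHMT2 passed the threshold in each fit with the replicate block: -1.10 (limma), -1.09 (edgeR), -1.12 (DESeq2), -1.01, -0.96, -1.16 and -1.27 (numbers 3, 1, 2 and 4 left out), -1.11 (median-ratio) and -1.07 (quantile). DES and NES kept a negative sign in all 28 alternatives, from -2.34 to -1.21 and from -2.34 to -1.05. They were called in 11 and 12 of them, and without the block only when both libraries numbered 3 or control 3 was left out and, for NES, with array weights. The sign turned for NEFL with edgeR (-0.029) and DESeq2 (-0.040), both without the block (0.22 and 0.22 with the replicate block), and with single libraries left out its range was -0.79 to 1.23. The corresponding ranges were -0.86 to 1.199 for NEFM, -0.074 to 0.40 for PRPH and -0.52 to 0.10 for SYNM. With number 1 left out and the block, PRPH had -0.14 and SYNM 0.024, and SYNM had 0.086 with number 2 left out. None of these turned values passed the threshold.

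The shift of number 3, as the mean of NEFL and NEFM minus that of the 4 muscle-type members, was 5.34 in control and 4.62 in siG9a. It ran from 4.16 to 5.96 and from 3.49 to 5.61 with 1 reference library left out. Pseudocount and scaling moved it by less than the spread of the other libraries. Summing all rows of a symbol could change nothing, each member having 1 row. Members with few reads (NEFH, INA, PRPH) are limited by depth.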
